A study of Mus musculus with 8 samples.

Results

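A set of 10 genes around calcineurin signalling was described in the soleus of Ts65Dn mice: the NFAT factors Nfatc1, Nfatc2, Nfatc3, Nfatc4 and Nfat5, the MEF2 factors Mef2a, Mef2c and Mef2d, and the calsarcins Myoz1 and Myoz2. They were chosen by symbol, through probe sets annotated to exactly 1 gene, and the probe set with the highest mean over all arrays stood for each gene. All 10 were measured, of 19938 genes in all, and by the RefSeq table they lie on chromosomes 2, 3, 7, 8, 13, 14 and 18, outside the chromosomes 16 and 17 that the extra segment comes from. The groups were soleus of 4 male mice of the strain Ts65Dn and of 4 male wild-type (WT) colony controls of the strain B6EiC3SnF1/J, a mix of B6 and C3H. The mice were about 5 months old and apparently healthy, their muscle was taken in the basal state under pentobarbital anaesthesia, and each gave 1 array. Ts65Dn mice model Down syndrome and carry a marker chromosome that puts genes of chromosomes 16 and 17 in 3 copies. Whole muscle was measured, so that fewer cells of a type and less RNA per cell cannot be told apart.

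Calcineurin is a phosphatase that calcium and calmodulin switch on during sustained nerve activity. It dephosphorylates the cytoplasmic NFAT proteins, which then enter the nucleus and, with MEF2 factors, act on genes of slow and oxidative fibres. NFAT kinases return them to the cytoplasm, and RCAN proteins and calsarcins bind calcineurin and restrain it. Much of this control acts on phosphorylation and location, which RNA levels do not show.

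Promoter sequences are printed for Mef2a, the member whose RNA passed the test, for its paralog Mef2c, and for Myoz2, whose window held a MEF2 element. RefSeq (GRCm38.p6) gave 12 promoter windows for 8 of the 10 genes. Each window holds the 250 bases before the annotated start, 5′ to 3′ on the gene's strand. Capitals mark the NFAT core GGAAA on either strand (written TTTCC on the other one) and the consensus MEF2 element.
Mef2a, chr7:67372859-67373108, minus strand: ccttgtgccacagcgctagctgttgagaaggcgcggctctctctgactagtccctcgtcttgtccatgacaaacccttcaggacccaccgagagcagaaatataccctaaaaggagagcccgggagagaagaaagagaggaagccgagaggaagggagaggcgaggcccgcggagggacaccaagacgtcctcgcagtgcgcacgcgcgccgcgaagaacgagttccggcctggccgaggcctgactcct
Mef2c, the first of 3 listed starts, chr13:83503784-83504033, plus strand: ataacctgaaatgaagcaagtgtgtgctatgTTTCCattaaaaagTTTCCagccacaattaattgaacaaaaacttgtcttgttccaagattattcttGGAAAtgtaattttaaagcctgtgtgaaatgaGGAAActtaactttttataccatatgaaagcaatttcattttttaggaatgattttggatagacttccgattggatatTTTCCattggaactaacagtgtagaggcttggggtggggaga
Myoz2, chr3:123034988-123035237, minus strand: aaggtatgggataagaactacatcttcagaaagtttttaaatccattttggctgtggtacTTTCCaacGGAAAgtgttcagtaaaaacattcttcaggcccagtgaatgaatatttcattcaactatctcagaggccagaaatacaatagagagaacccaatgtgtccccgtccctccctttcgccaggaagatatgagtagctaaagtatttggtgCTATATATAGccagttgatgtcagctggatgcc

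The Mef2a window held neither motif. The Mef2c window printed held 5 NFAT cores, the windows of its other 2 starts held 0, and the Myoz2 window held 2 NFAT cores and 1 MEF2 element, whose first base lay 33 bases before the start. An NFAT core stood in 8 of the 12 windows and in 55.6% of the 32851 windows of this length in the RefSeq table. A MEF2 element stood in 1 of the 12 and in 2.92% of all windows. A match is a description of letters and not of binding.

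The arrays differed between the groups across all genes. Array medians ran from 4.57 to 4.65 in Ts65Dn and from 4.72 to 4.86 in WT, on the log2 scale of the deposited values. The interquartile range ran from 2.70 to 2.81 in Ts65Dn and from 2.09 to 2.48 in WT, where arrays 2 and 3 stood apart at 2.23 and 2.09. The median log2 fold change (Ts65Dn over WT) was -0.22 for genes at a mean level of 5 or less, 0.09 between 5 and 7, 0.31 between 7 and 9 and 0.10 above 9. Over all genes it was -0.10, and it was 0.08 with each array centred on its median. Of all genes, 462 were called higher and 587 lower, against 911 and 79 after centring, 107 and 35 after cyclic loess, and 75 and 16 after level matching. Level-matched values, from which the median deviation of the 100 genes of nearest mean level was taken off array by array, are therefore given for each of the 10 genes beside the main ones, as are values without WT arrays 2 and 3. Muscle markers were bright in both groups: the mean over 7 fibre genes was 11.39 to 11.49 in Ts65Dn and 11.16 to 11.43 in WT.

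**Figure D1:**
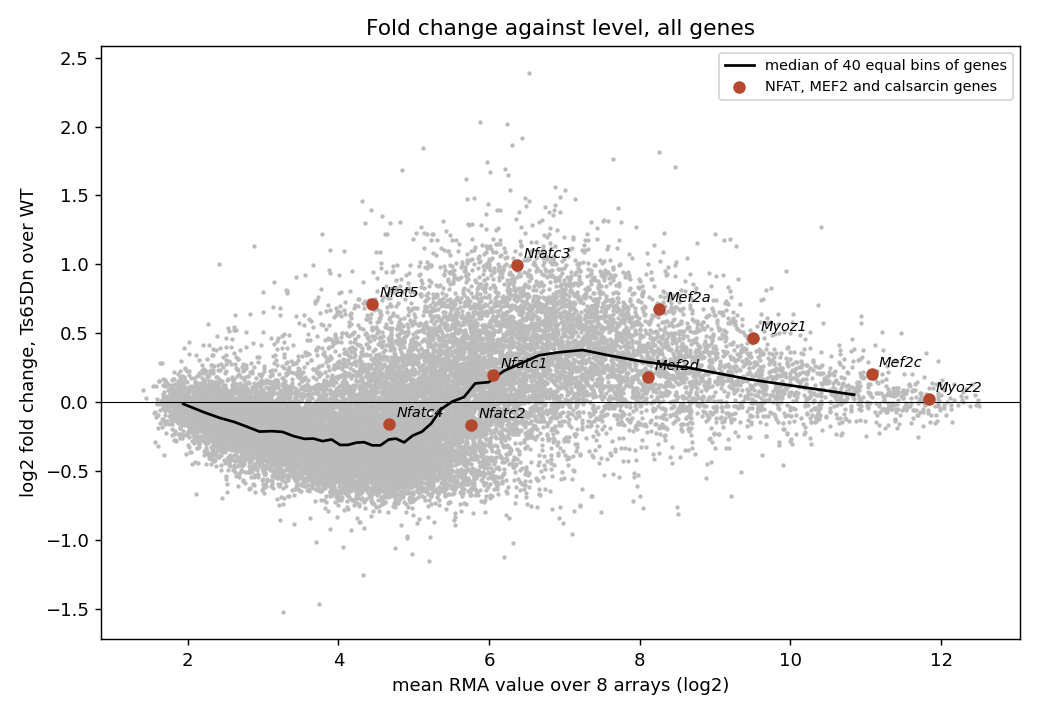
Log2 fold change (Ts65Dn over WT, vertical) of all 19938 genes in grey against their mean log2 RMA value over 8 arrays (horizontal), with the running median as a line and the 10 named genes in red. The line lies below 0 for dim genes and above 0 for genes of level 7 to 9, where Mef2a and Mef2d lie.

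Among the MEF2 factors, Mef2a was higher in Ts65Dn soleus. Mef2a encodes the MADS-box factor that with MEF2C and MEF2D makes up most of the MEF2 activity of muscle. Its values were 8.58, 8.78, 8.52 and 8.51 in Ts65Dn and 8.35, 7.61, 7.72 and 7.995 in WT (log2 RMA values, replicates 1 to 4). All 4 Ts65Dn arrays lay above all 4 WT arrays, by a margin of 0.16, and WT array 1 lay nearest to the Ts65Dn group. The means were 8.60 ± 0.13 in Ts65Dn and 7.92 ± 0.33 in WT (SD, n = 4 each). The log2 fold change was 0.68 (95% interval 0.31 to 1.04), or 1.598-fold, with a limma adjusted p of 0.0475 over all genes. Mef2a was the member called, 1 of 10, where 5.26% of all genes were called in either direction and 2.32% as higher and 2.94% as lower. Of the genes at a level of 7 to 9, 5.90% were called higher and 84.0% had a positive fold change. The Mef2a call was lost without any 1 of the 4 Ts65Dn arrays or WT array 2 or 3, with limma adjusted p-values from 0.0790 to 0.118. It was also lost with level matching (0.45, 95% interval 0.15 to 0.74, limma adjusted p = 0.107) and without WT arrays 2 and 3 (0.42, limma adjusted p = 0.227).

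Mef2c, needed for muscle development and for the integrity of mature fibres, had overlapping groups. It was at 11.13, 11.33, 11.21 and 11.06 in Ts65Dn and at 11.13, 11.02, 10.69 and 11.07 in WT. Only WT array 3 stood clearly below the rest. The log2 fold change was 0.21 (95% interval -0.09 to 0.50, limma adjusted p = 0.275), 0.14 with level matching and 0.08 without WT arrays 2 and 3. Mef2d, the third MEF2 factor of muscle, was at 8.23, 8.19, 7.94 and 8.44 in Ts65Dn and at 8.05, 7.71, 8.05 and 8.24 in WT. Its groups overlapped too, with a log2 fold change of 0.18 (95% interval -0.15 to 0.52, limma adjusted p = 0.387) that turned to -0.06 with level matching and was 0.05 without WT arrays 2 and 3. Mef2d has a second, dimmer probe set, at 6.45, 6.41, 6.89 and 6.78 in Ts65Dn and 5.90, 5.88, 6.55 and 6.26 in WT. That probe set gave a log2 fold change of 0.49 (95% interval 0.07 to 0.91) with a limma adjusted p of 0.137 over all probe sets. Mef2b, the remaining family member, was not analysed here.

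**Figure D2:**
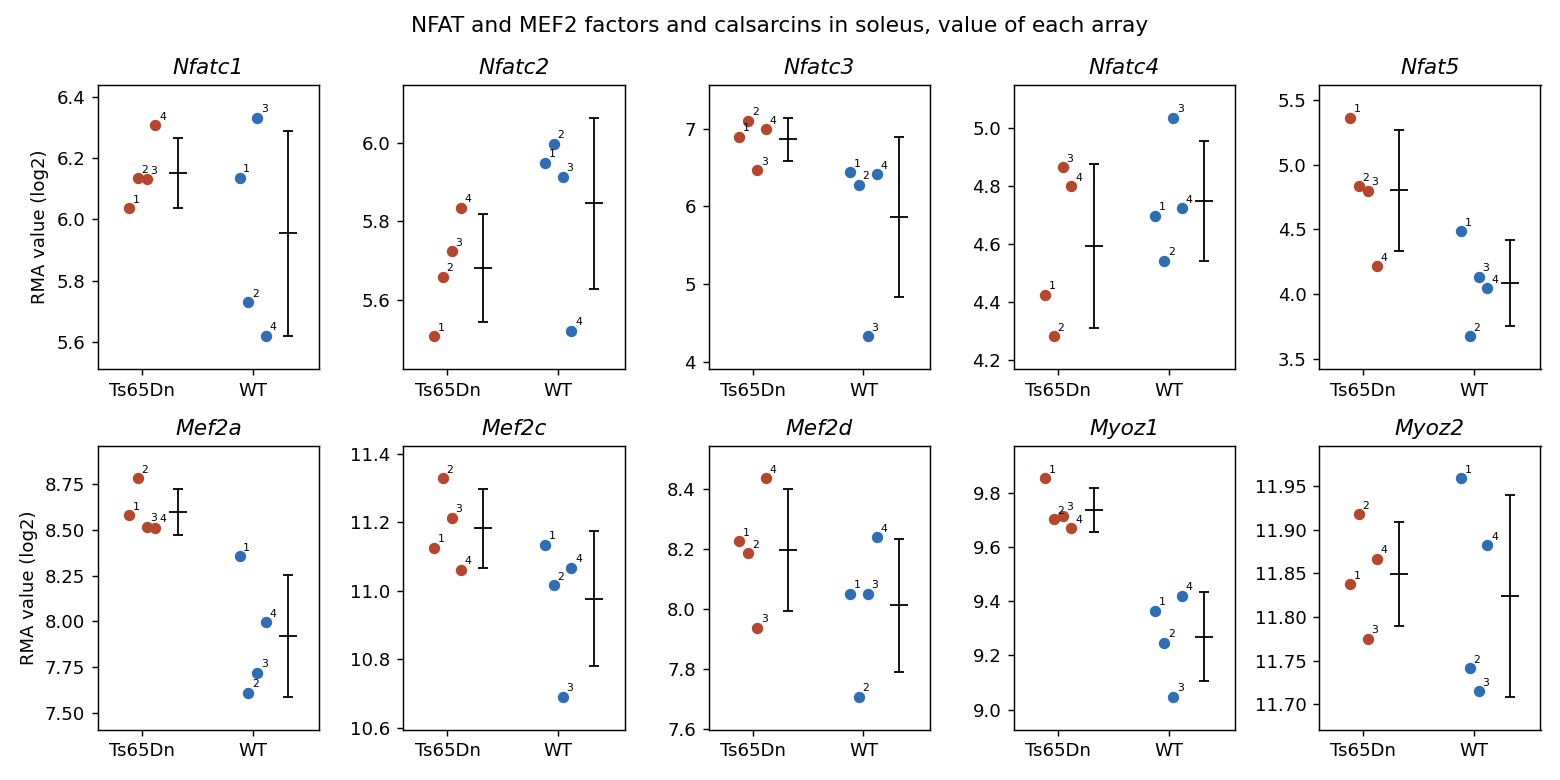
Log2 RMA value (vertical) of each of the 10 genes on every array, Ts65Dn left in red and WT right in blue, with replicate numbers and the mean ± SD of 4 arrays as a bar. Mef2a, Myoz1 and Nfatc3 have no Ts65Dn array within the WT range, and for Nfatc3 WT array 3 lies at 4.33, far below the others.

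The calsarcins gave unequal values. Myoz1, the calsarcin of fast fibres and a calcineurin-binding protein of the Z-disc, was at 9.85, 9.70, 9.72 and 9.67 in Ts65Dn and at 9.37, 9.25, 9.05 and 9.42 in WT. The groups did not overlap, with a margin of 0.25, the widest among the 10 genes. The log2 fold change of Myoz1 was 0.47 (95% interval 0.20 to 0.73), or 1.38-fold, and the limma adjusted p of 0.0518 missed the threshold of 0.05. Genes above a level of 9, as Myoz1 is, were called higher in 1.83% of cases and had a positive fold change in 72% of them. The Myoz1 value was 0.32 (95% interval 0.11 to 0.53, limma adjusted p = 0.109) with level matching and 0.34 without WT arrays 2 and 3. Myoz2, the calsarcin of slow fibres and heart, was at 11.84, 11.92, 11.78 and 11.87 in Ts65Dn and at 11.96, 11.74, 11.72 and 11.88 in WT. Its groups overlapped throughout, and its log2 fold change was 0.02 (95% interval -0.22 to 0.27, limma adjusted p = 0.885). The Myoz2 value was 0.02 with level matching and -0.07 without WT arrays 2 and 3. Myoz3, the third calsarcin and also one of fast fibres, is not among the 10 genes and gave 0.53 on the log2 scale (limma adjusted p = 0.0968) and 0.17 with level matching.

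Of the NFAT factors that calcineurin controls, none was called by limma. An unadjusted p under 0.05 was reached by 1 of 4, Nfatc3, beside 34.8% of all genes in either direction. Nfatc1, the NFAT factor most tied to slow fibres, was at 6.04, 6.13, 6.13 and 6.31 in Ts65Dn and at 6.14, 5.73, 6.33 and 5.62 in WT. The Ts65Dn arrays lay inside the wider WT range, and the log2 fold change was 0.20 (95% interval -0.17 to 0.56, limma adjusted p = 0.400). The Nfatc1 value was 0.07 with level matching, 0.0015 with quantile normalization and 0.27 without WT arrays 2 and 3. Single WT arrays moved it too, to 0.09 without array 4 and 0.32 without array 3. Nfatc2, known for its part in myoblast fusion and in lymphocytes, was at 5.51, 5.66, 5.72 and 5.84 in Ts65Dn and at 5.95, 5.998, 5.91 and 5.52 in WT. For Nfatc2, 3 WT arrays lay above all Ts65Dn arrays and WT array 4 near the lowest, with a log2 fold change of -0.16 (95% interval -0.47 to 0.14, limma adjusted p = 0.402). The Nfatc2 value was -0.24 with level matching, -0.05 without WT arrays 2 and 3 and -0.27 without WT array 4.

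Nfatc3, expressed in muscle from the myoblast stage on, was at 6.89, 7.10, 6.46 and 6.99 in Ts65Dn and at 6.44, 6.28, 4.33 and 6.41 in WT. All 4 Ts65Dn arrays lay above all WT arrays, by a margin of 0.02, and WT array 3 alone lay far below the rest of its group. The log2 fold change was 0.996 (95% interval 0.09 to 1.91, limma adjusted p = 0.118), the largest of the 10, at a level where 57.9% of genes had a positive one, and it was 0.80 with level matching, 0.48 without WT array 3 and 0.43 without both WT arrays 2 and 3. Nfatc4 was at 4.43, 4.28, 4.87 and 4.80 in Ts65Dn and at 4.70, 4.54, 5.04 and 4.72 in WT. The log2 fold change of Nfatc4 was -0.16 (95% interval -0.52 to 0.21, limma adjusted p = 0.503), the level-matched value had the other sign (0.11), and it was -0.12 without WT arrays 2 and 3.

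Nfat5 shares the DNA-binding domain but answers to osmotic stress and not to calcineurin. It was at 5.36, 4.83, 4.80 and 4.22 in Ts65Dn and at 4.49, 3.68, 4.14 and 4.05 in WT. Of the Ts65Dn arrays 3 lay above the whole WT range, and array 4 lay within it. The log2 fold change was 0.71 (95% interval 0.19 to 1.24, limma adjusted p = 0.0741). Nfat5 was dim, at a level where 18.8% of genes lay above 0 and limma called 0.443% higher, and its level-matched log2 fold change was larger, at 1.04 (95% interval 0.46 to 1.62, limma adjusted p = 0.0781). Without WT arrays 2 and 3 it was 0.54, and without WT array 1 alone it was 0.85 with a limma adjusted p of 0.0476. Of 6 measured genes known as NFAT5 targets 0 were called by limma. Among these 6, the amino acid transporter Slc38a2 (1.0) and the chaperone Hspa4l (0.53) had positive log2 fold changes at an unadjusted p under 0.05. The betaine transporter Slc6a12 (-0.49) and the urea transporter Slc14a2 (-0.48) had negative ones, beside 12.3% of all genes higher and 22.6% lower. Slc6a12 and Slc14a2 were dim, at mean levels of 3.94 and 4.16, where 18.8% of genes had a positive fold change. With level matching Slc38a2 was at 0.76, Hspa4l at 0.21, Slc6a12 at -0.24 and Slc14a2 at -0.19.

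Across the 10 genes, 8 had a positive log2 fold change and their median was 0.20, beside 39.2% positive and a median of -0.10 over all genes. With level matching 8 were positive, at a median of 0.13, against 50.1% and 0.00 over all genes. The groups did not overlap for 3 genes (Mef2a, Myoz1 and Nfatc3), all higher in Ts65Dn, where 6.81% of all genes lay wholly higher, 15.9% wholly lower and 22.7% either way. An unadjusted p under 0.05 was reached by 4 of the 10, with Nfat5 as the fourth, all higher, beside 12.3% of all genes higher and 22.6% lower. The 10 genes were picked with earlier results known, so these counts describe them and do not test them as a set.

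**Figure D3:**
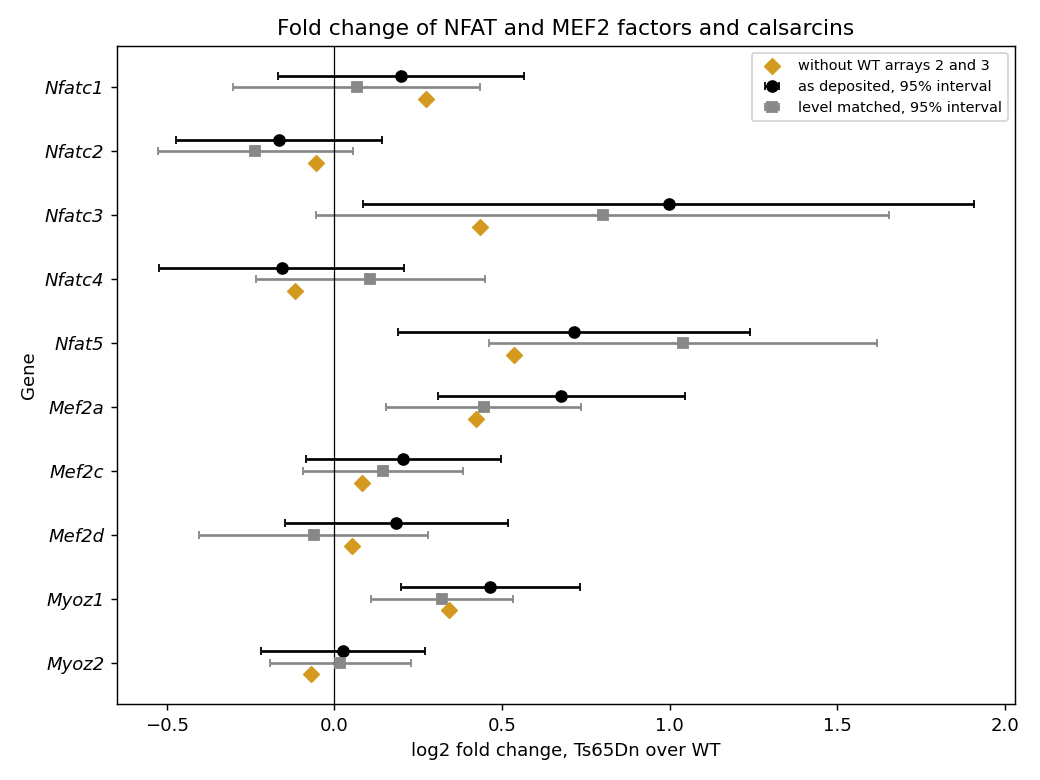
Log2 fold change (Ts65Dn over WT, horizontal) of each gene from the deposited values (circles) and after level matching (squares), with 95% limma intervals, and without WT arrays 2 and 3 (diamonds, no interval drawn). Nfatc4, Mef2d and Myoz2 change sign, and the other genes keep theirs. Among those, Mef2a, Myoz1 and Nfat5 have values from 0.32 to 1.04 and Nfatc3 from 0.43 to 0.996. Nfatc1, Mef2c and Nfatc2 come as near to 0 as 0.07, 0.08 and -0.05.

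Whether related genes responded unequally was tested on the difference between their values within each array, in 7 pairs. The differences compare responses only, since probe sets differ in brightness for the same amount of RNA. Myoz2 minus Myoz1 was 1.98, 2.22, 2.06 and 2.20 in Ts65Dn and 2.59, 2.49, 2.67 and 2.46 in WT. Every Ts65Dn array lay below every WT array, and the difference moved by -0.44 (95% interval -0.62 to -0.26). The exact two-sided permutation p was 0.0286, the smallest that 4 against 4 arrays can give, and 0.1 adjusted over the 7 pairs, so it did not pass the correction. With level matching the shift was -0.30, again with no overlap and an exact permutation p of 0.0286.

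Mef2a minus Mef2c was -2.55, -2.55, -2.70 and -2.55 in Ts65Dn and -2.78, -3.40, -2.97 and -3.07 in WT, with no overlap. The shift was 0.47 (95% interval 0.14 to 0.80, exact permutation p = 0.0286, adjusted 0.1), and it was 0.30 with level matching (exact permutation p = 0.0857). Against Mef2d the shift of Mef2a was 0.49 (exact permutation p = 0.0571, adjusted 0.1), with 3 of 4 Ts65Dn arrays above the WT range, and 0.51 with level matching. With the mean of probe sets, which takes in the second one of Mef2d, that shift was 0.34 (exact permutation p = 0.2). Mef2c minus Mef2d shifted by 0.02 (95% interval -0.48 to 0.52, exact permutation p = 0.886), an interval that leaves room for changes of either sign. Nfatc1 shifted by 0.36 against Nfatc2, 0.35 against Nfatc4 and -0.80 against Nfatc3, with exact permutation p-values of 0.0571, 0.0857 and 0.229 and adjusted values of 0.1, 0.12 and 0.267. The shift against Nfatc4 turned to -0.04 with level matching.

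**Figure D4:**
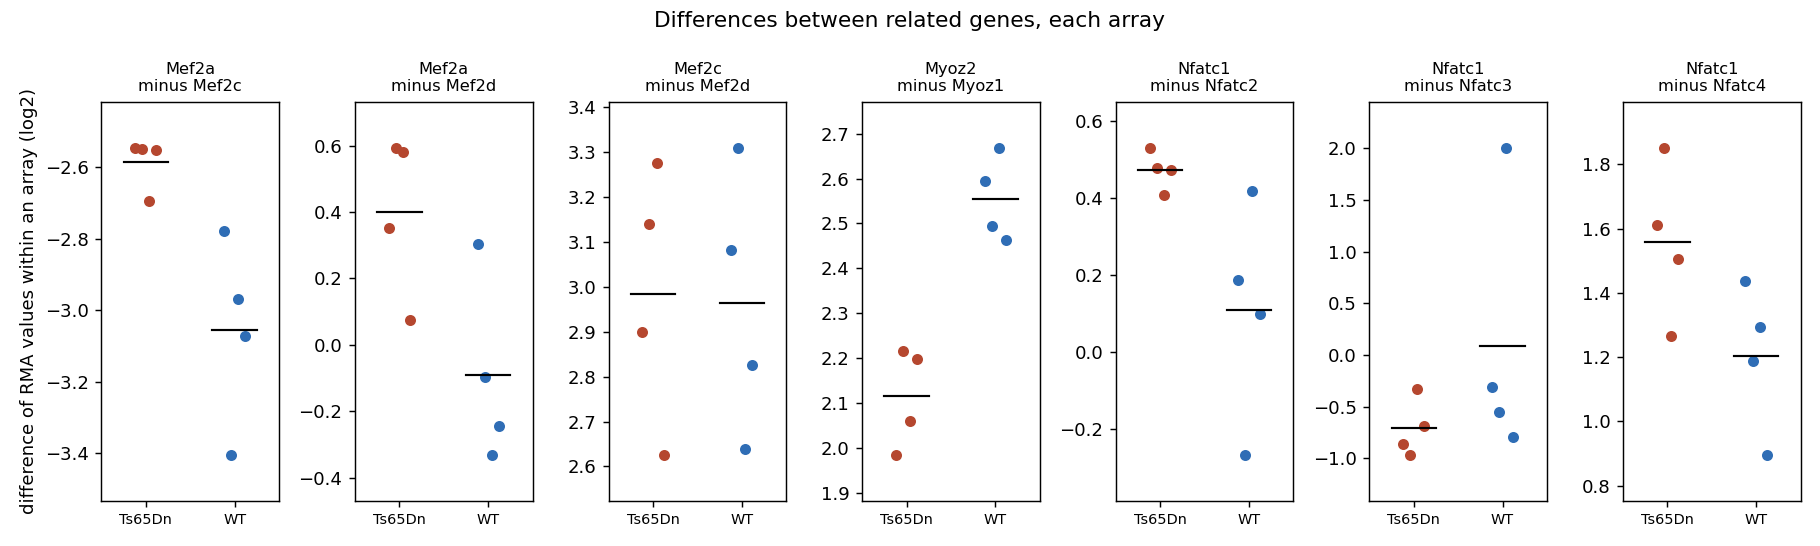
Difference between the log2 RMA values of related genes within each array (vertical), Ts65Dn left in red and WT right in blue, with the mean of 4 arrays as a line. The groups separate for Mef2a minus Mef2c and for Myoz2 minus Myoz1 and overlap in the other 5 pairs.

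Of 21 measured calcineurin and NFAT kinase genes 3 were called higher and 0 lower, beside 2.32% and 2.94% of all genes. A positive fold change was found in 16 of the 21, beside 39.2% of all genes, and in 12 with level matching, beside 50.1%. The median was 0.17, or 0.01 with level matching. The calcineurin inhibitor Rcan1 was at 10.12, 9.80, 9.28 and 9.15 in Ts65Dn and at 8.99, 8.56, 8.85 and 8.62 in WT, and the NFAT kinase Dyrk1a at 9.58, 9.77, 9.74 and 9.35 in Ts65Dn and 8.79, 8.54, 7.48 and 8.74 in WT. Both are carried in 3 copies in Ts65Dn and did not overlap between the groups. Their log2 fold changes were 0.84 for Rcan1 and 1.22 for Dyrk1a, at 0.0493 and 0.0456 as limma adjusted p. Dyrk1a has 2 probe sets whose mean gave 0.40, so that the dimmer one was lower in Ts65Dn. With level matching Rcan1 was at 0.59 and Dyrk1a at 0.99, and neither was called (limma adjusted p = 0.184 and 0.0577). Gsk3b, another NFAT kinase, stood 0.86 higher on the log2 scale (limma adjusted p = 0.0475), and 0.57 with level matching (limma adjusted p = 0.109). Without WT arrays 2 and 3, limma called none of Rcan1, Dyrk1a and Gsk3b, whose adjusted p-values were then 0.229, 0.174 and 0.237. The calcineurin subunits Ppp3ca (0.68), Ppp3cb (0.33) and Ppp3r1 (0.47) lay above 0 on the log2 scale without passing (0.145, 0.141 and 0.118 as adjusted p by limma). Their values were 0.40, 0.18 and 0.12 with level matching and 0.29, 0.12 and 0.14 without WT arrays 2 and 3. The subunits Ppp3cc and Ppp3r2 were at 0.12 and -0.13, or at -0.16 and -0.04 with level matching.

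Among 25 regulators of MEF2, 2 were called higher and 0 lower, beside 2.32% and 2.94% of all genes. At an unadjusted p under 0.05, 9 were higher and 3 lower, beside 12.3% and 22.6% of all genes. Between the groups 5 lay wholly higher and 3 wholly lower, beside 6.81% and 15.9% of all genes. The median log2 fold change was 0.17, and 0.03 with level matching. Camk2d, a calmodulin kinase of the family that drives class II histone deacetylases off MEF2, was at 7.80, 7.92, 7.44 and 7.65 in Ts65Dn and at 7.01, 6.75, 5.84 and 6.48 in WT. Its groups did not overlap, with a margin of 0.44. The mean of Camk2d was higher by 1.18 on the log2 scale (limma adjusted p = 0.0456), and by 0.82 with level matching (limma adjusted p = 0.0552). Mapk14, the p38 kinase that phosphorylates MEF2 proteins, was higher by 0.66 on the log2 scale (limma adjusted p = 0.0492), and by 0.33 with level matching (limma adjusted p = 0.206). Both calls were lost without WT arrays 2 and 3, at limma adjusted p-values of 0.174 for Camk2d and 0.235 for Mapk14.

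Of 17 measured genes known as MEF2 targets, 2 were called higher and 1 lower, beside 2.32% and 2.94% of all genes. At an unadjusted p under 0.05, 5 were higher and 3 lower, beside 12.3% and 22.6% of all genes. The median log2 fold change was 0.17, or 0.05 with level matching. Xirp2, an actin-binding protein that MEF2A controls in mice, was at 11.36, 11.24, 11.16 and 11.14 in Ts65Dn and at 10.91, 10.76, 10.35 and 10.57 in WT. The M-band protein Myom2 was at 9.22, 8.49, 8.66 and 9.02 in Ts65Dn and 7.97, 8.31, 7.39 and 7.38 in WT. Neither gene overlapped between the groups, and their log2 fold changes were 0.58 (limma adjusted p = 0.0475) and 1.09 (limma adjusted p = 0.0456). Dlk1, an imprinted gene of a locus that MEF2A acts on, was lower, at 4.63, 5.34, 5.37 and 5.16 in Ts65Dn and 5.57, 6.32, 6.19 and 5.76 in WT, or -0.83 on the log2 scale (limma adjusted p = 0.0493). With level matching the values were 0.50 for Xirp2, 0.86 for Myom2 and -0.79 for Dlk1, none of them called (limma adjusted p from 0.0765 to 0.101). Without WT arrays 2 and 3 the values were 0.49 for Xirp2, 1.18 for Myom2 and -0.54 for Dlk1, with limma adjusted p-values of 0.208, 0.174 and 0.268.

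Among 6 measured NFAT targets Rcan1 was the gene called, beside 5.26% of all genes in either direction. Rcan1 has an extra copy in Ts65Dn, and its call was lost with level matching (limma adjusted p = 0.184). Myh7, Myh2 and Tnni1 were not called. Of 11 slow-fibre genes and 13 fast-fibre genes 0 were called by limma, with medians of 0.04 and 0.12. An unadjusted p under 0.05 was reached by 0 of them, beside 34.8% of all genes in either direction. The slow myosin heavy chain Myh7 had a log2 fold change of 0.26 (95% interval -0.11 to 0.63) and the slow troponin Tnni1 one of 0.06 (95% interval -0.20 to 0.31). Beside the fast-fibre calsarcin Myoz1, the fast-fibre actinin Actn3 ranged from 6.14 to 9.26 in Ts65Dn and from 5.04 to 7.33 in WT. The fast myosin light chain Myl1 gave 0.22 on the log2 scale (limma adjusted p = 0.225). Of the 13 fast-fibre genes 10 had a positive fold change, and Pvalb (-0.24), Mybpc2 (-0.23) and Tnni2 (-0.0022) negative ones. Of the 11 slow-fibre genes 7 were positive, beside 39.2% of all genes. The 2 of smallest p went opposite ways, Casq2 at 0.59 and Myh7b at -0.26 (limma adjusted p = 0.147 and 0.198). Myh7, Tnni1 and Casq2 lay above a level of 9, where 72% of genes were positive, and Myh7b lay at 5.78. With level matching 6 slow-fibre and 10 fast-fibre genes were positive, beside 50.1% of all genes, at medians of 0.01 and 0.11. Of 10 Z-disc partners of the calsarcins 0 were called by limma. An unadjusted p under 0.05 was reached by 4, all higher, beside 12.3% of all genes higher. A positive fold change was found in 9, and in 9 with level matching, beside 39.2% and 50.1% of all genes. The median was 0.38, or 0.35 with level matching. Flnc lay at a level of 8.16 and Csrp3 at 11.22, ranges where 84.0% and 72% of genes were positive. The filamin Flnc (0.95) and the LIM protein Csrp3 (0.51) came closest, with limma adjusted p-values of 0.0518 and 0.0571 and no overlap between the groups.

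**Figure D5:**
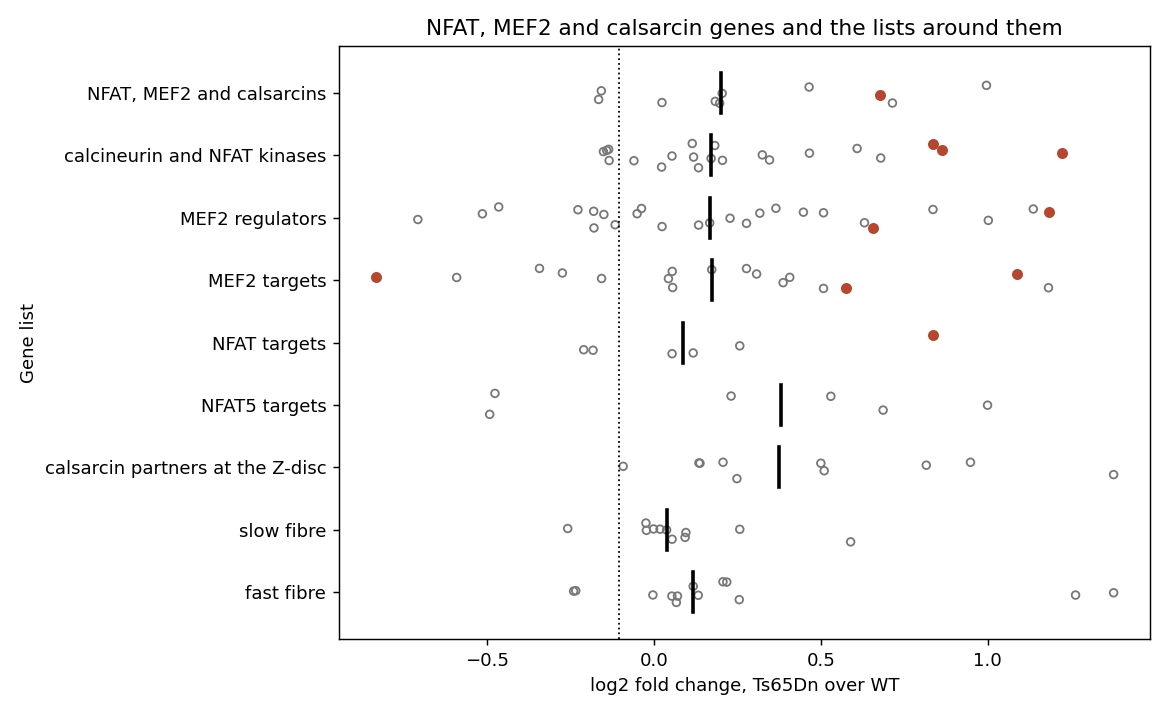
Log2 fold change (Ts65Dn over WT, horizontal) of each gene, as a point, in the 10 named genes and in 8 lists around them, with genes called by limma filled in red, list medians as bars and the median of all genes as a dotted line. List medians lie between 0.04 and 0.38, all to the right of the dotted line at -0.10.

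The 5 genes whose centred values lay nearest to those of Mef2a over the 8 arrays were Fbxo22, Cdk8, Rbm39, Ank3 and Ambra1, with root mean square differences of 0.08 to 0.10 on the log2 scale. Each of these was low in WT arrays 2 and 3, as Mef2a was, and the likeness is a description of shared array values. Among the other named genes Myoz1 was nearest, at rank 429, and Mef2c stood at rank 1662.

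Mean levels of markers of other cell types overlapped between the groups in some lists and not in others. They overlapped for smooth muscle and pericytes (5.70 to 6.07 in Ts65Dn, 5.55 to 5.77 in WT) and for adipocytes (5.79 to 6.39 and 6.11 to 6.62). Schwann cell markers overlapped too (5.33 to 5.59 and 5.43 to 5.64), and limma called 0 markers in each of these lists. The mean over 6 endothelial markers was 5.91 to 6.02 in Ts65Dn and 5.18 to 5.61 in WT, where arrays 2 and 3 were lowest (5.27 and 5.18). Kdr and Emcn were called higher, beside 2.32% of all genes. The median log2 fold change of the endothelial markers was 0.56, or 0.31 with level matching and 0.23 without WT arrays 2 and 3. The mean over 6 macrophage markers was 4.68 to 5.41 in Ts65Dn and 4.34 to 4.56 in WT, and 4 of the 6 had a positive fold change, at a median of 0.19. Cd68 was the macrophage marker called, at 2.39, and the lowest value among the 6 was -0.21. With level matching 6 of the 6 macrophage markers were positive, beside 50.1% of all genes, at a median of 0.42. The mean over 6 lymphocyte markers was 3.29 to 3.52 in Ts65Dn and 3.64 to 3.98 in WT, where the groups did not overlap. Of these 6, limma called 0, and 3 were lower at an unadjusted p under 0.05, beside 22.6% of all genes. Their median log2 fold change was -0.41, or -0.22 with level matching. The brightest of them, Cd3e, lay at 4.97, and genes at a level of 5 or less had a median of -0.22. The mean over 6 fibroblast markers was 6.68 to 6.91 in Ts65Dn and 6.52 to 6.65 in WT, with Pdgfra called higher, while 3 of the 6 had a negative fold change, down to -0.35. The mean over 5 satellite cell markers was 4.69 to 4.81 in Ts65Dn and 4.84 to 4.97 in WT, again without overlap, and their median log2 fold change was -0.29, or 0.0016 with level matching. Their part in the values of Mef2a, Nfatc2 and the other genes, which these cells can express too, was not tested.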

How the data were processed

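The authors made the deposited log2 values with Affymetrix Expression Console 1.1 and RMA, per the submitters' processing notes. RMA corrects background, normalizes arrays and summarises probe sets. The log2 scale was read from the values' range. Genome build and annotation: not given in the sources used here. Of 35556 probe sets, 21789 had 1 gene symbol, 1621 several and 12146 none. For 21698 the symbol was updated through the Entrez identifier (RefSeq, GRCm38.p6). The groups were compared with lmFit and eBayes (limma 3.58.1, R 4.3.3), two-sided and without covariates, and p-values were Benjamini-Hochberg adjusted over all 19938 genes, with a threshold of 0.05. "Called" means past that threshold. The scripts were first tested on simulated data. Paralog differences used exact permutation tests (scipy 1.17.1). Alternatives were other scalings, the mean of probe sets, a filter on dim genes, a replicate block, other variance models, a threshold of 0.10, joint adjustment of all probe sets, and leaving out arrays. WT arrays 2 and 3 were left out together after their values were seen. The 10 genes, the lists and the tests were chosen with earlier results of these data known. Genes outside the 10 are those fixed by name, the called genes of each list or its 2 of smallest p, and the 5 nearest to Mef2a. Slc38a2, Hspa4l, Ppp3cc, Ppp3r2, Pvalb, Mybpc2, Tnni2 and the markers were named after their values were seen. The 28 array pairs held 0 identical pairs, with correlations from 0.943 to 0.989.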

Additional observations from a re-analysis of the deposited data

Results flagged for a closer look

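In 3 of 92 groups of 4 arrays tested for a lone high or low array, 1 array lay apart from the others, and chance alone gives about 1 group in 20. Nfatc3 was at 4.33 in WT array 3, where the nearest WT array was at 6.28. The difference Mef2a minus Mef2c was -2.70 in Ts65Dn array 3, where the nearest Ts65Dn array was at -2.55. Rbm39 was at 8.54 in Ts65Dn array 4, where the other Ts65Dn arrays lay at 8.60.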

How the results depend on the processing

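Of the 10 genes, Mef2a was called in the main comparison, and 2 were called (Mef2a and Myoz1) with array centring or with an intensity trend and robust estimation. At a threshold of 0.10 the count was 3, with Nfat5. It was 0 by limma with quantile normalization, cyclic loess, level matching, genes above the median level, the replicate block, array weights, all probe sets adjusted together, or WT arrays 2 and 3 left out together, and 0 to 3 leaving out single arrays. For Mef2a the log2 fold change ran from 0.40 to 0.86 over all alternatives, and for Myoz1 from 0.28 to 0.65, with limma adjusted p-values from 0.0276 to 0.227 and from 0.0371 to 0.222. The count over all genes was 1049. It was 0 with quantile normalization (4369 genes at an unadjusted p under 0.05), 142 with cyclic loess, 91 with level matching, 436 among genes above the median level and 236 with array weights. It was 1 without WT arrays 2 and 3, 1 with all probe sets adjusted together and 4961 at a threshold of 0.10. Leaving out single arrays gave 0 to 2865 calls, the highest without WT array 1 and 2422 without WT array 4. The replicate block gave 0 calls over all genes, with 7014 at an unadjusted p under 0.05. The Mef2a call was lost there, at a limma adjusted p of 0.0564, and a balanced block cannot move the fold change itself. The sample titles give replicate numbers and no pairing, and whether arrays of the same number were handled together was not tested. Deviations of same-numbered arrays correlated by 0.01 to 0.09, and those of other pairs across the groups by -0.12 to 0.09. Of 8 arrays, 4 correlated best with their own number, and such small correlations cannot decide the question. With the pairing, the exact permutation p of Myoz2 minus Myoz1 and of Mef2a minus Mef2c was 0.125, the smallest that 4 pairs can give.

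Signs turned for genes that were not called. Nfatc2 was at 0.019 with array centring. Nfatc4 was at 0.021 with quantile normalization, 0.027 with centring, 0.10 with cyclic loess and 0.11 with level matching. Mef2d was at -0.095, -0.081 and -0.062 with quantile normalization, cyclic loess and level matching. Myoz2 was at -0.012 with cyclic loess, -0.022 with array weights and -0.071 without WT arrays 2 and 3, and leaving out single arrays gave -0.011 to 0.070. Mef2a minus Mef2c shifted by 0.27, 0.31 and 0.30 with quantile normalization, cyclic loess and level matching (exact permutation p = 0.0857, 0.0571 and 0.0857). Nfatc1 minus Nfatc4 turned to -0.019, -0.025 and -0.040 under the same scalings, and Mef2c minus Mef2d to -0.13 with the mean of probe sets. The cause was not tested. Nfatc4 and Nfat5 lay below the median level and dropped out with the filter on dim genes, and 4 arrays a group limit the precision.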
